A study of Mus musculus with 25 samples.

Results

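Tumour cells that had grown in the liver were compared with tumour cells that had grown in the peritoneum of the same 4 mice. The comparison rests on 8 of the 25 RNA-seq libraries of the series, which are the 4 libraries labelled as isolated tumour cells from the liver and the 4 labelled as isolated tumour cells from the peritoneum. All 8 carried the bipotential mouse embryonic liver (BMEL) line transformed with H-Ras G12V, grown as an orthotopic allograft in athymic nude (Foxn1nu) hosts with no further treatment. The age and sex of the hosts, and whether RasHIGH or RasLOW cells had been injected into these animals, are not in the labels. The negative fraction of the same sort supplied 8 libraries of stromal cells (4 per site), and 9 libraries came from cultured cells (3 each of BMEL with an empty vector, RasLOW and RasHIGH).

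BMEL cells are a cloned line from a C57BL/6 × C3H embryo that can differentiate towards hepatocytes or bile duct cells, so all 8 tumour samples descend from 1 clone. The oncogene is a human H-Ras cDNA placed in a bicistronic vector with a fluorescent protein, and sorting for that fluorescence separated tumour from host cells. Ras passes growth signals through Raf, Mek and Erk, and active Erk induces its own inhibitors (the Dusp phosphatases and the Sprouty proteins) together with Ets family factors such as Etv4 and Etv5. Athymic hosts lack T cells but keep natural killer (NK) cells and macrophages. The liver is built from hepatocytes, sinusoidal endothelium, Kupffer cells and stellate cells, whereas the peritoneal lining consists of mesothelium over connective tissue rich in fibroblasts. According to the study, the peritoneal tumours probably came from cells that leaked out at injection, so they may not stand for spread through the blood.

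The labelled cell identity was checked against epithelial genes of the line. The summed level of 12 such genes, in CPM (read counts scaled to library size with TMM factors), was 7240, 5700, 6980 and 7230 CPM in liver tumour cells of mice 1 to 4 and 8050, 7790, 9050 and 7120 CPM in peritoneal tumour cells, against 607 to 1210 CPM in the 8 stromal libraries. All 8 tumour libraries therefore stood several-fold above all stromal ones. The 7 members with enough counts to be tested had higher means in tumour cells than in stroma at both sites. They included the adherens junction protein Cdh1, the hepatic factors Hnf4a and Foxa2 and the fetal plasma protein Afp. Most of the sum came from the keratins Krt8 (means of 3820 CPM in liver and 4580 CPM in peritoneal tumour cells) and Krt18 (2170 and 2450 CPM). Epcam, Onecut1, Dlk1, Gpc3 and Igf2 were too low to be tested at either site and went the other way, with higher means in stroma. For Gpc3 the means were 0.0295 and 0.594 CPM in liver and peritoneal tumour cells against 4.44 and 66.2 CPM in stroma. Total counts ran from 26496363 to 51241336 per tumour library, at which 3 counts correspond to 0.0585 to 0.113 CPM. Correlations of log CPM between libraries of 1 site lay between 0.99 and 0.994 in the liver and between 0.976 and 0.993 in the peritoneum.

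Marker genes of host cell types were detected in the sorted tumour cells, at levels that differed by site and by library. The sum of 12 fibroblast and stellate cell genes was 64.4, 66.3, 64.1 and 73.6 CPM in liver tumour cells of mice 1 to 4 and 1530, 335, 342 and 243 CPM in peritoneal tumour cells. The same sum was 3970 to 8080 CPM in liver stroma and 51800 to 77500 CPM in peritoneal stroma. Peritoneal mouse 1 was highest by a wide margin, and even the lowest peritoneal library exceeded all 4 liver libraries. The library of peritoneal mouse 1 was also highest for neutrophil genes, at 105 CPM against 7.67 to 8.92 in the other peritoneal and 13.2 to 15.6 in the liver tumour libraries. It was highest for adipocyte genes as well, at 26 CPM. Hepatocyte genes summed to 13.7, 63.1, 62.1 and 15.5 CPM in liver tumour cells and to 10.6, 10.9, 1.55 and 4.71 CPM in peritoneal tumour cells. Relative to the stroma of the same tumour these hepatocyte sums were 9.72%, 17.1%, 41.7% and 27.5% in liver and 72.1%, 167%, 17.4% and 95.7% in peritoneum, and whether the RNA came from host cells or from the tumour cells was not tested. Macrophage genes (458 to 525 CPM in liver, 379 to 707 CPM in peritoneum) and leukocyte genes (99.5 to 135 and 47.4 to 177 CPM) overlapped between the sites. The largest member of the leukocyte sum was Cd53 (means of 59.1 and 30.6 CPM, log2 fold change 0.96, adjusted p = 0.0884 by edgeR). Of the 11 tested leukocyte genes 9 had a negative log2 fold change and 2 a positive one, Cd53 and Itgb2 (median -0.72), with 0 called. Most of the macrophage sum was Mrc1, a mannose receptor (means of 400 and 337 CPM, log2 fold change 0.26, adjusted p = 0.142), whereas Cd163, a haemoglobin receptor, had 0.53 to 1.08 CPM in liver and 0.986 to 22.8 CPM in peritoneum (-3.23, adjusted p = 0.0824). Of the 12 tested macrophage genes 10 had a negative log2 fold change (median -1.61), with 0 called by edgeR and 1 by DESeq2 (1 and 3 with an unadjusted p under 0.05 in liver and peritoneum). In bulk libraries fewer host cells and less RNA per host cell cannot be told apart.

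**Figure D1:**
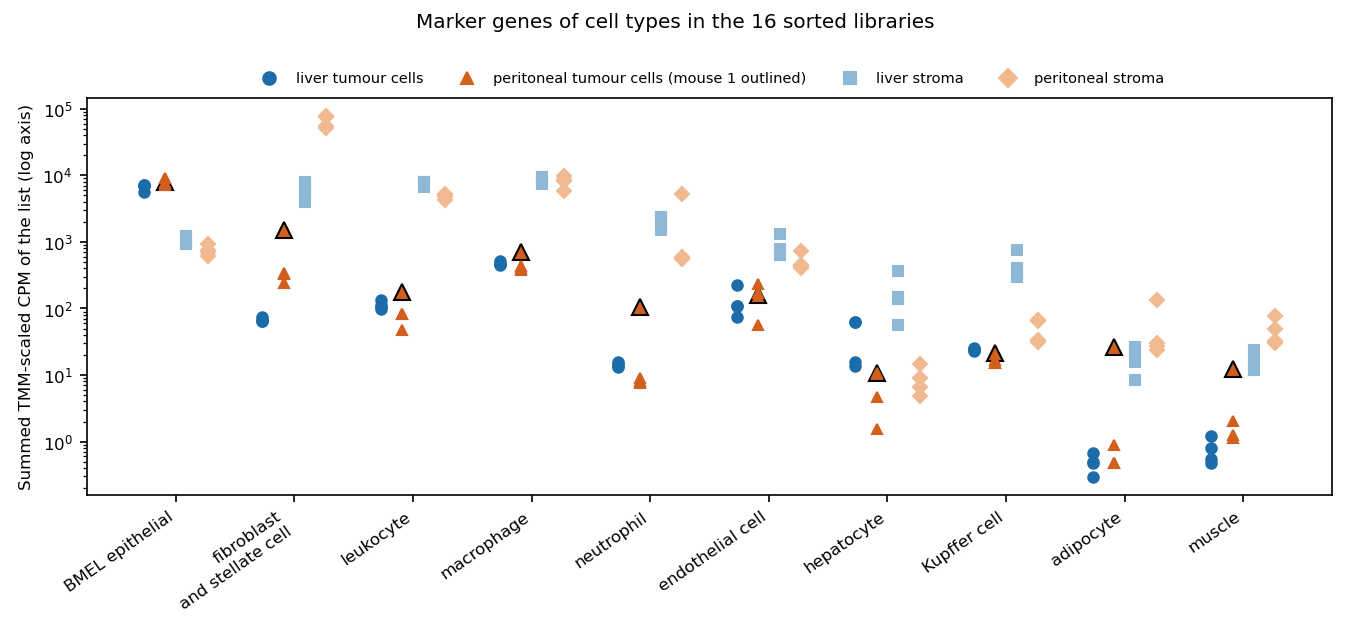
Summed CPM (log axis) of 10 marker gene lists in each of the 16 sorted libraries, 4 mice per group, with peritoneal mouse 1 outlined. Fibroblast genes ranged from 64.1 to 73.6 CPM in liver tumour cells and from 243 to 1530 CPM in peritoneal tumour cells, and the BMEL epithelial genes were above all stromal libraries in all 8 tumour libraries.

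Most genes had similar levels at the 2 sites. The log2 fold change (liver over peritoneum) of 11328 of the 13074 genes tested (86.6%) lay between -0.5 and 0.5, with a median of -0.01. By edgeR's quasi-likelihood test, at an adjusted p under 0.05 and an absolute log2 fold change above 1, 150 genes (1.15% of those tested) were called, 50 (0.382%) higher in liver and 100 (0.765%) higher in peritoneal tumour cells. Because the tumours were paired by animal, the fit was repeated with the mouse as a block, which called 50 genes (21 and 29), of which 49 were among the 150. At a looser threshold (unadjusted p under 0.05, same fold), 460 genes passed (3.52%), 150 higher in liver (1.15%) and 310 in peritoneum (2.37%), and 40 tumour-higher genes were among those of each direction.

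The called genes were then separated by where their RNA was more abundant. Using mean CPM, 99 of the 150 were higher in stroma than in tumour cells at both sites, 30 were higher in tumour cells at both sites and 21 were mixed. The 2 directions differed in this makeup. Of the 100 genes higher in peritoneal tumour cells, 82 were stroma-higher, 14 tumour-higher and 4 mixed. Of the 50 genes higher in liver tumour cells, 17 were stroma-higher, 16 tumour-higher and 17 mixed. Among all genes tested, 4436 were stroma-higher, 6996 tumour-higher and 1642 mixed. With the mouse as a block, 20 of the 82, 7 of the 14 and 1 of the 4 were still called, as were 6 of the 17, 7 of the 16 and 8 of the 17.

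**Figure D2:**
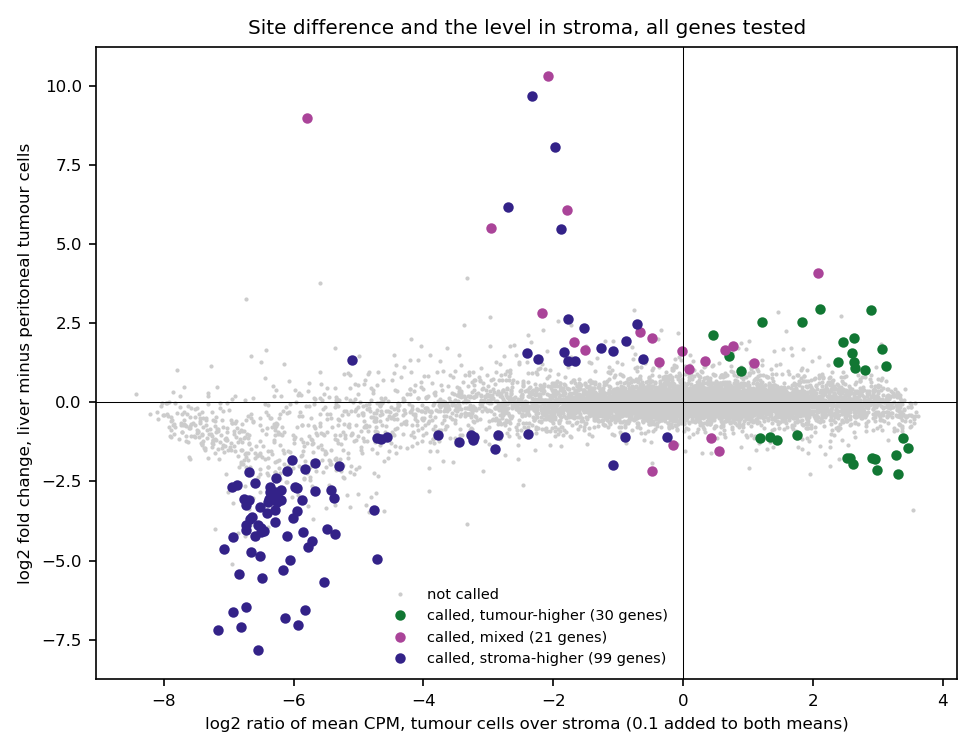
Site difference in tumour cells (log2, liver over peritoneum) against the log2 ratio of mean tumour cell to mean stromal CPM (0.1 CPM added) for 13074 genes, with the 30 tumour-higher, 21 mixed and 99 stroma-higher called genes coloured. The stroma-higher calls lie mostly on the peritoneal side (82 of 99), whereas the tumour-higher calls are divided 16 to 14.

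The 16 tumour-higher genes of the liver side included a milk protein, a hormone receptor, cell surface proteases and components of stratified epithelia. Csn3 encodes kappa-casein and was measured at 61.0, 43.7, 75.9 and 56.8 CPM in liver tumour cells of mice 1 to 4 and at 8.68, 12.7, 4.35 and 5.81 CPM in peritoneal tumour cells. The lowest liver value was over 3 times the highest peritoneal value. Its log2 fold change was 2.92 (SE 0.302, adjusted p = 0.00296). Gipr, the receptor of the gut hormone GIP, was at 15.9, 19.0, 18 and 17.9 CPM in liver and at 4.48, 5.19, 3.46 and 3.29 CPM in peritoneal tumour cells, a log2 fold change of 2.12 (SE 0.159, adjusted p = 0.0009). The liver mean was 17.7 ± 1.3 CPM (SD, n = 4) and the peritoneal mean 4.1 ± 0.897 CPM, with no overlap. Gipr RNA was also present in liver stroma at a mean of 11.8 CPM, against 4.08 CPM in peritoneal stroma.

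Tmprss11b and Tmprss11e are membrane-anchored serine proteases of epithelia. Tmprss11b was at 7.64, 11.6, 15.6 and 10.9 CPM in liver and at 2.84, 3.17, 3.67 and 2.59 CPM in peritoneal tumour cells (log2 fold change 1.90, SE 0.218, adjusted p = 0.00448). Tmprss11e was at 22.0, 24.9, 25.5 and 23.5 CPM against 7.23, 10.7, 9.05 and 5.84 CPM (1.55, SE 0.162, adjusted p = 0.00296). The groups overlapped for neither protease, and for Tmprss11e the gap between sites exceeded the spread within either group. Padi1, which converts arginine in proteins to citrulline, was at 7.53, 6.35, 5.48 and 6.39 CPM in liver and at 1.39, 2.42, 1.34 and 1.17 CPM in peritoneal tumour cells (2.03, SE 0.255, adjusted p = 0.00676). These 3 genes were low in both stromal fractions, with means of 0.278 to 4.48 CPM.

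Genes of stratified epithelium and of the matrix followed with smaller differences. Lamb3, a chain of the basement membrane protein laminin 332, was at 231, 237, 305 and 263 CPM in liver and at 123, 154, 145 and 91.0 CPM in peritoneal tumour cells (log2 fold change 1.02, SE 0.153, adjusted p = 0.0126). The groups did not overlap. Ivl (involucrin, of the cornified envelope) had 23.8 to 44.2 CPM in liver against 7.58 to 16.5 CPM in peritoneum and a log2 fold change of 1.26 (adjusted p = 0.028), which was not called with the block (adjusted p = 0.104). Has3, a hyaluronan synthase, had 18.2 to 24.2 CPM against 5.76 to 13.5 CPM (1.15, adjusted p = 0.0451, with the block 0.0683). Mboat2, an acyltransferase of membrane phospholipids, had 35.7 to 57.2 CPM against 20.7 to 26.7 CPM and was called in both fits (1.08, adjusted p = 0.00766 and 0.0159).

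The largest fold change among the 16 was that of Cited1, a transcriptional coactivator that binds CBP and p300. It was at 9.4, 7.96, 25 and 13.8 CPM in liver and at 1.79, 3.23, 1.74 and 0.475 CPM in peritoneal tumour cells (2.95, SE 0.499, adjusted p = 0.0196). Liver mouse 3 was the highest, and the call was lost with the block (adjusted p = 0.0659). Tmem132c was at 68.5, 74.8, 30.1 and 55.1 CPM against 10.0, 12.9, 25.7 and 22.3 CPM, so that liver mouse 3 came near to the peritoneal range (1.70, SE 0.331, adjusted p = 0.0278, with the block 0.104). Nmnat2, which makes NAD, had 26.5 to 50.6 CPM against 7.3 to 21.7 CPM (1.29, adjusted p = 0.0434, with the block 0.0534). Kbtbd11 had 47.9 to 76.8 CPM against 20.8 to 38.7 CPM (1.01, adjusted p = 0.0334, with the block 0.105). Sp9 (a zinc finger factor), Tmem74b and Ppp1r26 (a subunit of protein phosphatase 1) were under 3 CPM in all 8 libraries, with log2 fold changes of 2.56, 2.53 and 1.48, and none of the 3 was called with the block (adjusted p = 0.0744, 0.0591 and 0.0854).

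The 14 tumour-higher genes of the peritoneal side included apolipoprotein B and proteins of the apical surface and of microtubules. Misp, an actin-binding protein that positions the mitotic spindle, was at 5.88, 6.33, 9.63 and 4.96 CPM in liver tumour cells of mice 1 to 4 and at 36.9, 33.6, 29.6 and 30.5 CPM in peritoneal tumour cells. The highest liver value was less than the lowest peritoneal value divided by 3. Its log2 fold change was -2.28 (SE 0.187, adjusted p = 0.00109). Apob, the structural protein of the lipoproteins that the liver secretes, was at 115, 87.8, 135 and 98.6 CPM in liver and at 255, 230, 295 and 415 CPM in peritoneal tumour cells (-1.44, SE 0.19, adjusted p = 0.00766). Thus this hepatic gene was higher away from the liver, in 4 of 4 mice, and its means in stroma were only 20.2 and 16.5 CPM.

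Syt8, a member of the synaptotagmins of membrane fusion, was at 2.87, 5.11, 4.83 and 4.17 CPM in liver and at 15.6, 12.3, 14.2 and 16.1 CPM in peritoneal tumour cells (-1.77, SE 0.186, adjusted p = 0.00296). Psrc1, a microtubule-binding protein of the spindle, was at 7.02, 6.08, 6.83 and 5.19 CPM against 12.3, 17.5, 12.1 and 15.5 CPM (-1.18, SE 0.157, adjusted p = 0.00766). Cdhr5, a protocadherin of microvilli, was at 5.26, 2.65, 7.39 and 3.13 CPM against 23.3, 14.8, 13.8 and 20.1 CPM (-1.96, SE 0.312, adjusted p = 0.0168). None of these groups overlapped, and all 3 genes were called with the block as well. Gcnt3, which branches mucin-type sugar chains, had 13.3 to 20.8 CPM in liver and 29.4 to 42.3 CPM in peritoneum (-1.12, adjusted p = 0.0153), and Bcas1 had 15.3 to 19.6 CPM against 31.9 to 88.9 CPM (-1.75, adjusted p = 0.0143), both called with the block.

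The other 7 genes of this group were called without the block only. Gjb1 (connexin 32, of hepatocyte gap junctions) had 1.96 to 5.16 CPM in liver and 6.3 to 18.3 CPM in peritoneum (-1.77, adjusted p = 0.0319, with the block 0.0854). Camsap3, which binds microtubule minus ends, had 2.76 to 4.18 CPM against 6.11 to 7.94 CPM (-1.14, adjusted p = 0.0174, with the block 0.0563). Trim71, an RNA-binding ubiquitin ligase of early embryos, was at 1.17 to 1.77 CPM in liver and at 4.11, 3.44, 4.41 and 9.64 CPM in peritoneum, where mouse 4 stood apart (-1.78, adjusted p = 0.0267, with the block 0.0878). Clrn3 (-2.14), Plcxd3 (-1.65), Foxj1, a factor of ciliated cells (-1.08), and the transporter Slc22a18 (-1.03) had adjusted p-values of 0.0339, 0.028, 0.0399 and 0.0366, and with the block of 0.0606, 0.0554, 0.104 and 0.0539.

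**Figure D3:**
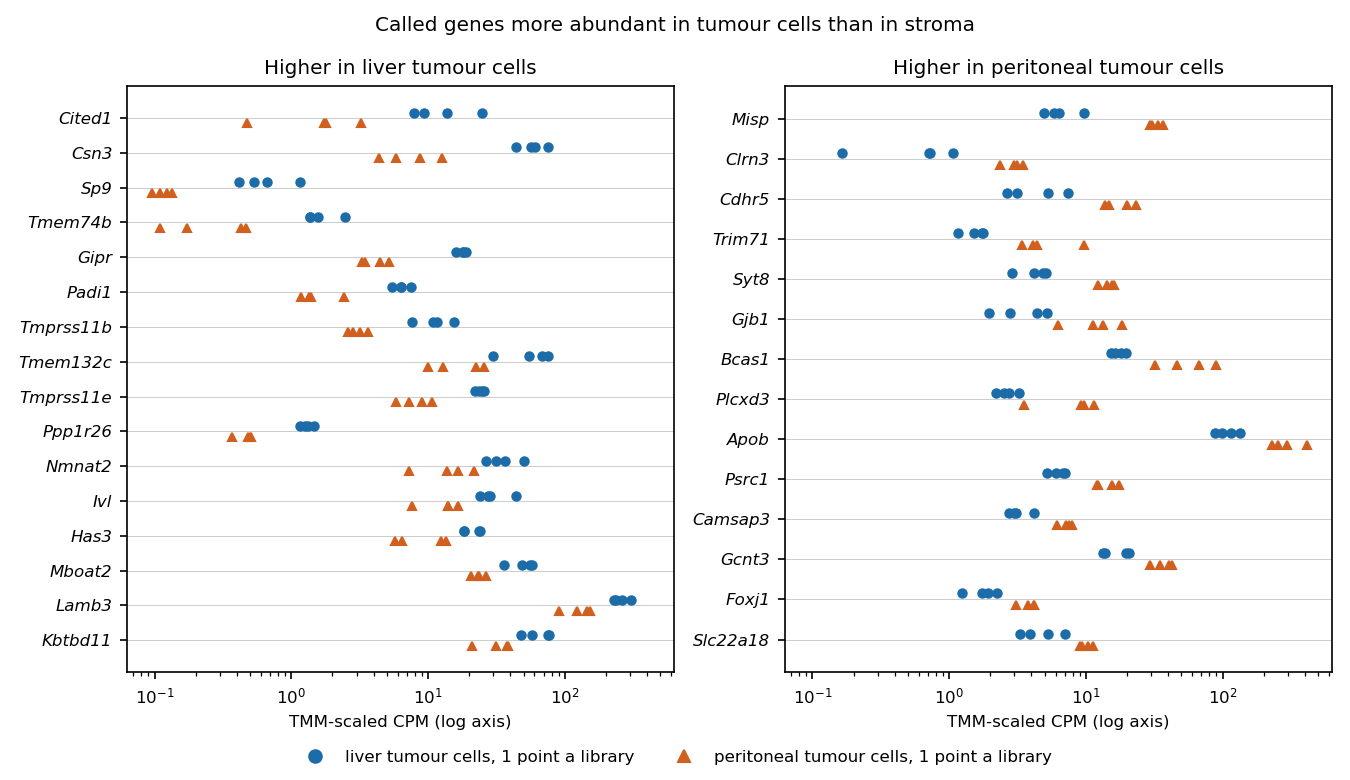
CPM (log axis) of the 30 tumour-higher called genes in each of the 8 tumour cell libraries, 16 higher in liver in one panel and 14 higher in peritoneum in the other, with 1 point per library. The 4 liver and the 4 peritoneal points of each gene do not overlap, as in Csn3 (43.7 to 75.9 against 4.35 to 12.7 CPM) and Misp (4.96 to 9.63 against 29.6 to 36.9 CPM).

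How far these calls depended on single libraries was examined by leaving each library out. A set of 9 genes, namely Csn3, Gipr, Padi1, Tmprss11b and Tmprss11e on the liver side and Misp, Syt8, Apob and Psrc1 on the peritoneal side, were called in all 8 such fits and with the block. The library descriptions place both sites in each of 3 sequencing lanes, and with lane as a term all 9 were called again (adjusted p = 0.00451 to 0.0346), among 97 genes in all (27 higher in liver, 70 in peritoneum). Without peritoneal mouse 1, which had the highest fibroblast sum, all 30 tumour-higher genes were still called. The largest losses came without liver mouse 2, when 19 of the 30 were no longer called (adjusted p = 0.0523 to 0.125), and without liver mouse 4, when 18 were lost (adjusted p = 0.0542 to 0.121). Without liver mouse 3, 11 were lost, and the other libraries cost 4 (liver mouse 1), 7, 9 and 7 calls (peritoneal mice 2, 3 and 4). All 30 kept their direction in each of these fits. The 4 liver and 4 peritoneal values of all 30 did not overlap, a state found for 1555 of all genes tested (11.9%), 738 higher in liver (5.64%) and 817 in peritoneum (6.25%). As the 30 were called on these same values, their lack of overlap follows largely from the selection and is no further support. The 16 liver-side genes also had a higher mean in liver than in peritoneal stroma in 16 of 16 cases (median log2 ratio 1.52, against 1.62 in tumour cells), whereas only 4 of the 14 peritoneal-side genes had the higher mean in peritoneal stroma (median log2 ratio, liver over peritoneum, 0.15 against -1.70 in the tumour cells). The epithelial sum was 926 to 1210 CPM in liver and 607 to 940 CPM in peritoneal stroma, while Epcam had means of 5.36 and 4.11 CPM in stroma against 0.0664 and 0.0486 CPM in tumour cells. The source of this RNA, and its part in the stromal values, was not tested.

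**Figure D4:**
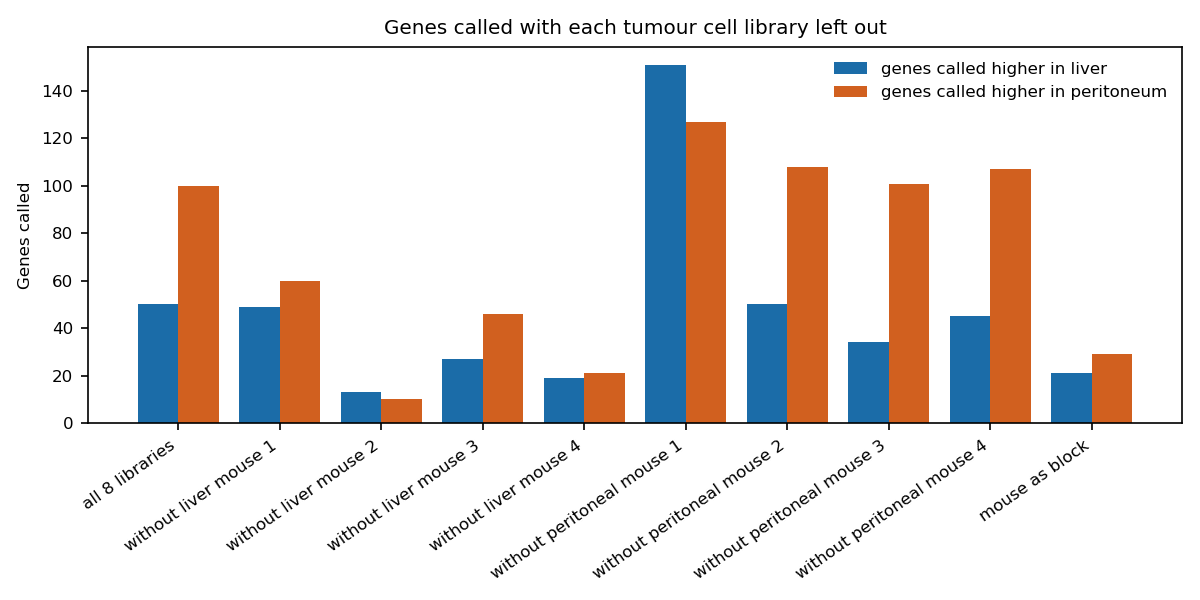
Number of genes called higher in liver and in peritoneal tumour cells with all 8 libraries, without each library in turn and with the mouse as a block. The total is 150 with all libraries, falls to 23 without liver mouse 2 and rises to 278 without peritoneal mouse 1.

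On the NCBIM37 (mm9) assembly these 9 protein-coding genes lie on 6 chromosomes. Those of the liver side are Tmprss11b (chr5:87086656-87105387), Tmprss11e (chr5:87134211-87174840), Csn3 (chr5:88354604-88361690), Gipr (chr7:19742474-19751476) and Padi1 (chr4:140368898-140401693). Those of the peritoneal side are Syt8 (chr7:149620755-149626301), Misp (chr10:79283766-79293197), Apob (chr12:7984454-8023641) and Psrc1 (chr3:108186757-108191149). Promoter sequences were taken from RefSeq (GRCm38.p6, 250 bases before to 50 after the start) for 20 of the 30 tumour-higher genes. Both strands were searched for an AP-1 motif (TGANTCA), an Ets motif (CCGGAAG) and a hypoxia factor motif (TACGTG), none of which contains another. The AP-1 and Ets motifs were chosen because Erk acts on Fos, Jun and Ets factors.

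The promoters of 3 of these genes are shown to give the sequence in front of genes that moved in opposite directions. The promoter of the protease gene Tmprss11b (chr5:86676249-86676548, minus strand) holds the hypoxia factor motif on its opposite strand, that of Syt8 (chr7:142434600-142434899, plus strand, the first of 3 entries) holds the AP-1 motif, and that of Apob (chr12:7977427-7977726, plus strand) holds none of the 3. Capitals mark the motif.
Tmprss11b: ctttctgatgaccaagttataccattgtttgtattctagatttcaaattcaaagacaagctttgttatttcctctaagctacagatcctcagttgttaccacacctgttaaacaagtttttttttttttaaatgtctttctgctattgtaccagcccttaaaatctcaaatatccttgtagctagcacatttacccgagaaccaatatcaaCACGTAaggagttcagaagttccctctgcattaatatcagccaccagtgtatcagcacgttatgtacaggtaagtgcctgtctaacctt
Syt8: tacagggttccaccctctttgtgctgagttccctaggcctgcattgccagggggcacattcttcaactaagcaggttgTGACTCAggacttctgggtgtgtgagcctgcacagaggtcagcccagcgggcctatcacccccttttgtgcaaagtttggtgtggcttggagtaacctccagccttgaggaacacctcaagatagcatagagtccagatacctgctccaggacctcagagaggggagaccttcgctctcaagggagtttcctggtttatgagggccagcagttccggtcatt
Apob: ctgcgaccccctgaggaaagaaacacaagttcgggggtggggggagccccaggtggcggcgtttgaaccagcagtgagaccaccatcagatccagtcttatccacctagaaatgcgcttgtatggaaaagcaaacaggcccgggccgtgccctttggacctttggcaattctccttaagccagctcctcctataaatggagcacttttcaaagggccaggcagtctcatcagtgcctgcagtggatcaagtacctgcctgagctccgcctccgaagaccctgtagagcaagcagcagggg

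Across the 14 promoter entries of the liver-side genes, 1 (7.14%) held the AP-1 motif (Ivl), 1 (7.14%) the Ets motif (Ppp1r26) and 2 (14.3%) the hypoxia factor motif (Sp9 and Tmprss11b). Of the 15 entries of the peritoneal-side genes, 1 (6.67%) held the AP-1 motif (Syt8) and 0 held the others. Of all 32851 entries, 7.81%, 8.86% and 3.23% held these motifs in the same order. With counts of 0 to 2 the shares are descriptions of these windows and no more.

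Markers of hepatocytes and Kupffer cells were among the other genes of the liver side, 17 of which were stroma-higher and 17 mixed. The plasma protein genes Fga, Fgg and Fgb (fibrinogen chains), Alb (albumin) and Ahsg (fetuin A), which define hepatocytes, were the 5 genes called among the 8 tested hepatocyte genes, with and without the block. The other tested members, Apoa1 (-0.13), Ttr (0.35) and Cyp2e1 (0.25), did not pass the test (adjusted p = 0.931, 0.799 and 0.874). Apoa1 had means of 4.47 CPM in liver and 4.9 CPM in peritoneal tumour cells. Alb was at 3.47, 22.9, 28.6 and 5.28 CPM in liver tumour cells of mice 1 to 4 and at 0.0309, 0.753, 0 and 0.11 CPM in peritoneal tumour cells. Mice 2 and 3 were the high liver libraries for Alb, and the same 2 had the highest Fgg (5.0 and 4.3 CPM, against 1.09 and 0.759 in mice 1 and 4). Fgg had no count in any peritoneal tumour library, a level at least 24.6-fold higher in liver when set against 3 counts in the shallowest library. Mug1, another plasma protein, was likewise at least 8.07-fold higher (0.29 to 1.6 CPM against 0), but was not called with the block (adjusted p = 0.0652). Clec4f, a receptor of Kupffer cells, had 0.668 to 3.37 CPM in liver tumour cells, 107 CPM on average in liver stroma and 0 at both peritoneal fractions. It was the 1 gene called of 5 tested Kupffer cell genes. Cd5l (3.79), Vsig4 (1.71) and Slc40a1 (0.54) did not pass the test (adjusted p = 0.0612, 0.388 and 0.0577), and Nr1h3 had 2.49 to 3.48 CPM in liver against 4.28 to 6.7 CPM in peritoneum (-0.88, adjusted p = 0.0484, with the block 0.132). Since both peritoneal fractions were at or near 0 for Fga, Fgb, Alb and Clec4f, these genes were classed as mixed.

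The 82 stroma-higher genes of the peritoneal side included 7 of the 11 tested fibroblast and stellate cell markers (Col1a1, Col1a2, Col3a1, Pdgfrb, Lum, Postn and Fap), of which only Postn, a matrix protein of activated fibroblasts, was called with the mouse as a block (adjusted p = 0.0159, the others 0.0554 to 0.125). Col3a1, a fibrillar collagen, was at 644, 90.3, 114 and 74.0 CPM in peritoneal tumour cells of mice 1 to 4 and at most 14.3 CPM in liver tumour cells (-4.24, adjusted p = 0.0186). Col1a1 was at 446, 141, 126 and 82.1 CPM against at most 29.6 CPM (-3.07, adjusted p = 0.0161). Peritoneal mouse 1 was the highest for both, and it was the highest of the 4 for 75 of the 82 genes. Relative to the stroma of the same tumour, the 82 genes stood at a median of 3.43% in peritoneal mouse 1 and of 0.684%, 0.695% and 0.677% in mice 2, 3 and 4. In stroma 76 of the 82 were also higher in peritoneum (median log2 ratio, liver over peritoneum, -3.05, against -3.19 in the tumour cells). Without peritoneal mouse 1, 77 of the 82 were still called. Genes nearly absent from liver tumour cells included Dpt (dermatopontin, a small matrix protein), at 13.9, 0.269, 0.859 and 0.548 CPM in peritoneum and at most 0.0316 CPM in liver, and the secreted Wnt regulator Sfrp2, at 16, 0.538, 0.706 and 0.73 CPM against at most 0.0589 CPM. Both were highest in peritoneal mouse 1, and no fold change is given for them because their liver values rest on a few counts. Neither was called with the block (adjusted p = 0.0585 and 0.0775). The 17 stroma-higher genes of the liver side were different in level, standing at medians of 34.6% to 49.3% of the stroma of the same tumour.

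Among the 21 mixed genes, 5 are given here that were chosen after their values were seen. Glp1r, the receptor of the gut hormone GLP-1 and a relative of Gipr, was at 11.8, 8.15, 7.98 and 4.74 CPM in liver tumour cells and at 1.54, 0.0807, 0.306 and 0 CPM in peritoneal tumour cells (4.09, adjusted p = 0.033, with the block 0.0413). Its liver level was 687% of that in liver stroma, and it was called in only 2 of the 8 fits that left out 1 library (adjusted p of at most 0.11). Lpar1, a receptor of lysophosphatidic acid, was at 18.1, 15.6, 15 and 19.6 CPM against 5.99, 5.41, 4.33 and 5.99 CPM (1.66, adjusted p = 0.00132). Its direction in stroma was the opposite, with means of 15 CPM in liver and 49.7 CPM in peritoneal stroma. Aplp1, a relative of the amyloid precursor protein, was at 10.8, 17.8, 18.5 and 12.4 CPM against 3.55, 3.34, 3.69 and 2.05 CPM (2.24, adjusted p = 0.00296), with near-equal stromal means of 14.2 and 14.6 CPM. Als2cl was higher in peritoneum at 24.4, 21.9, 28.5 and 28.6 CPM against 11.2, 10.8, 11.6 and 13.4 CPM (-1.13, adjusted p = 0.00296), and Cideb, a lipid droplet protein of hepatocytes, had a log2 fold change of -1.52 (adjusted p = 0.0247, with the block 0.0797). Lpar1, Aplp1 and Als2cl were called with the block and in all 8 fits that left out 1 library.

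The study linked 4 genes, Ceacam1, Csn3, Selp and Tmem252, to both Ras dose and site, and 3 of them were called here, all higher in liver. As the study picked them from these samples, their direction in these libraries is not independent evidence. The study also measured these genes by RTqPCR in sorted tumour cells. By flow cytometry it reported tumour cells with Ceacam1 protein as more frequent in liver than in peritoneal tumours, at a similar mean intensity of labelling. Those assays were not analysed here. Ceacam1, an adhesion molecule whose binding inhibits NK cells, was at 13.5, 10.2, 9.16 and 18.5 CPM in liver and at 5.09, 3.17, 0.897 and 4.46 CPM in peritoneal tumour cells (1.94, SE 0.439, adjusted p = 0.0451, with the block 0.0436), and it was called in only 2 of the 8 fits that left out 1 library (adjusted p of at most 0.125). Ceacam1 reads can be shared with the similar gene Ceacam2, and its stromal means (17.2 CPM in liver, 12.7 CPM in peritoneum) exceeded those of the tumour cells. Tmem252 was at 21.5, 14.4, 18.5 and 14.6 CPM against 8.18, 5.81, 9.05 and 6.06 CPM (1.25, adjusted p = 0.0121), and its mean in peritoneal stroma (8.47 CPM) was above the mean of peritoneal tumour cells (7.28 CPM). Selp, P-selectin, was at 78.7, 85.2, 90.9 and 111 CPM against 47.5, 28.7, 20 and 69.8 CPM. Although the Selp groups did not overlap, the difference did not pass the test (1.15, adjusted p = 0.0793).

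Whether the site difference resembled the dose difference of cultured cells was asked with a list from separate libraries. RasHIGH against RasLOW cultures gave 253 genes (2.12% of 11962 tested, unadjusted p under 0.01 and absolute log2 fold change above 1.5). Of the 147 higher in RasHIGH, 142 were tested between sites, and 4 were called higher in liver (Csn3, Tmem132c, Ceacam1 and Tmem252) and 2 higher in peritoneum (Col6a3 and Clrn3). Of the 106 lower in RasHIGH, 81 were tested, with 2 called higher in liver (Ppp1r26 and Clic5) and 3 higher in peritoneum (Col5a1, Cxcl12 and Col1a1). Among all genes tested between sites, 0.382% were called higher in liver and 0.765% higher in peritoneum. The median log2 fold change between sites was -0.04 for the first and -0.19 for the second group, beside -0.01 over all genes. With the mouse as a block only Csn3, Ceacam1 and Tmem252, which the study picked on these samples, were called among the list's tested members, and the other 8 had adjusted p-values of 0.0606 to 0.114. Leaving out 1 library gave 2 to 17 calls, the fewest without liver mouse 2 or mouse 4 and the most without peritoneal mouse 1.

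Genes directly downstream of Erk had closely similar levels at the 2 sites. Of 22 tested feedback and Ets targets, 0 were called by edgeR and 0 by DESeq2, while 8 had an unadjusted p under 0.05 (4 in each direction). With no minimum fold, 2641 of all genes tested (20.2%) had an unadjusted p under 0.05, 1289 higher in liver (9.86%) and 1352 in peritoneum (10.3%), and 419 (3.2%) an adjusted p under 0.05. The list counts at an unadjusted p are to be read beside these shares. Their log2 fold changes ran from -0.34 (Epha4) to 0.36 (Egr1), with 11 positive and 11 negative. Dusp6, a phosphatase of Erk, was at 445, 391, 418 and 351 CPM in liver and at 454, 385, 560 and 365 CPM in peritoneal tumour cells. The groups overlapped, and the 95% interval of its log2 fold change ran from -0.43 to 0.17. Dusp4 was at 133, 165, 240 and 194 CPM against 176, 135, 153 and 186 CPM (interval -0.20 to 0.56). Etv4 (-0.22), Etv5 (-0.31), Spry2 (-0.19) and Phlda1 (-0.08) had adjusted p-values of 0.338, 0.136, 0.461 and 0.753. By edgeR in culture (RasHIGH over empty vector), Dusp6 (0.12), Dusp4 (0.76), Spry2 (0.63) and Phlda1 (-0.79) had adjusted p-values of 0.701, 0.147, 0.139 and 0.0507. In the same fit Etv4 (1.56) and Etv5 (1.1) had 0.00119 and 0.0153. The list is therefore not read as a measure of Erk activity. The study has other evidence on this point. By RTqPCR in cultured cells it reported that a signature of Erk targets differed with Ras dose. In sorted tumour cells its RTqPCR gave a higher mean level of the oncogene in liver than in peritoneum. Its gene set analysis of tumour cells from the 2 sites reported regulation of the MAPK cascade as enriched in liver. Those assays and that analysis were not repeated here. Counts at mouse Hras were 49.3 to 56.3 CPM by total counts in liver and 44.8 to 57.3 in peritoneal tumour cells (log2 fold change 0.11, SE 0.0897, adjusted p = 0.532), against 24.5 to 31.8 in stroma. In culture they were 80 to 94.3 with the empty vector, 52.7 to 101 in RasLOW and 52.9 to 83.1 in RasHIGH cells, which overlapped, so they are not read as a transgene level. The 2 short lists of genes that the study names as rising or falling with Ras dose in culture gave 0 calls of 6 and 0 of 8 tested by edgeR (2 in each with an unadjusted p under 0.05, 0 and 1 called by DESeq2).

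Most genes of hypoxia and glycolysis and of the unfolded protein response had a positive log2 fold change, and none was called. Positive values were also in the majority among cell cycle genes (18 of 20) and Wnt, Notch and TGF-beta targets (9 of 12). Of 18 genes of hypoxia and glycolysis, 16 had a positive log2 fold change (median 0.36), and 11 had an unadjusted p under 0.05 in that direction, but 0 were called by edgeR or DESeq2. Vegfa, the angiogenic growth factor, had 829 to 1170 CPM in liver and 464 to 841 CPM in peritoneum (0.62, adjusted p = 0.0861), the glucose transporter Slc2a1 had 519 to 1000 CPM against 415 to 556 CPM (0.60, adjusted p = 0.0894), and hexokinase Hk2 had a log2 fold change of 0.47 (adjusted p = 0.0536). All 3 had overlapping groups. Of 12 genes of the unfolded protein and amino acid response, 10 were positive (median 0.34, 8 with an unadjusted p under 0.05, 0 called by either tool), led by Trib3 (0.88, adjusted p = 0.0569).

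Of 12 p53 targets 8 had a negative and 4 a positive log2 fold change. By edgeR or DESeq2 0 were called at the 2-fold threshold, and 5 had an unadjusted p under 0.05, all higher in peritoneum. Zmat3 had 48.1 to 52.8 CPM in liver and 62.4 to 69.9 CPM in peritoneum (-0.40, adjusted p = 0.0243), Ccng1 125 to 166 CPM against 188 to 218 CPM (-0.42, adjusted p = 0.0479) and Eda2r 3.5 to 5.05 CPM against 6.36 to 10.5 CPM (-0.86, adjusted p = 0.0491). None of the 3 groups overlapped, and none passed with the block (adjusted p = 0.0854, 0.117 and 0.0897). Among 22 apoptosis genes 0 were called by either tool (0 and 3 with an unadjusted p under 0.05 in liver and peritoneum), with the death receptor Tnfrsf10b at 31.1 to 36.6 CPM against 41.2 to 51.3 CPM (-0.39, adjusted p = 0.0477, with the block 0.073). Of 20 cell cycle genes 0 were called by either tool and 0 had an unadjusted p under 0.05, with 18 positive and 2 negative log2 fold changes (median 0.09).

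**Figure D5:**
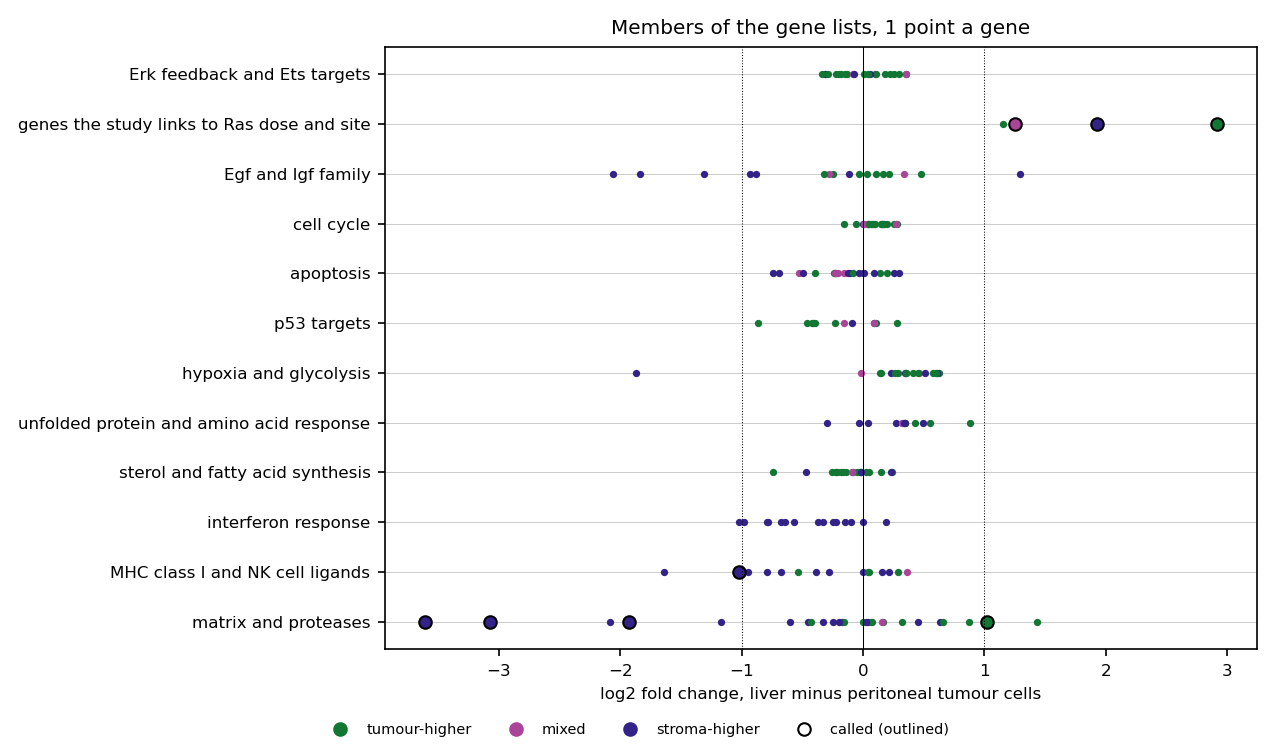
Log2 fold change (liver over peritoneal tumour cells) of the tested members of 12 gene lists, 1 point per gene, with called genes outlined and dotted lines at -1 and 1. Hypoxia genes have a median of 0.36 and unfolded protein genes of 0.34, and the Erk targets lie between -0.34 and 0.36.

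Hnf4a and Msln were higher in peritoneal tumour cells by less than 2-fold. Hnf4a, the master factor of hepatocyte identity, had 194 to 241 CPM in liver and 273 to 369 CPM in peritoneum (-0.51, adjusted p = 0.033, with the block 0.0667), and of the 7 tested BMEL epithelial genes 0 were called by either tool (0 and 2 with an unadjusted p under 0.05). Msln, mesothelin, had 216 to 263 CPM against 338 to 470 CPM (-0.75, adjusted p = 0.0126, with the block 0.0233), while 0 of 3 tested mesothelial genes passed the 2-fold threshold by either tool (1 with an unadjusted p under 0.05). Msln was far lower in stroma, at means of 54 and 40 CPM.

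Among 27 genes of matrix and proteases, 1 was called higher in liver (Lamb3) and 3 higher in peritoneum (Tnc, Mmp2 and Lox, all stroma-higher), of which Tnc was not called with the block (adjusted p = 0.0554). Lama3, the partner chain of Lamb3 in laminin 332, had 36.4 to 60.6 CPM in liver and 4.64 to 34.2 CPM in peritoneum without passing the test (1.43, adjusted p = 0.122). Of 17 genes of the Egf and Igf families 0 were called by edgeR and 1 by DESeq2 (2 and 7 with an unadjusted p under 0.05), with Igfbp3, a carrier of insulin-like growth factors, at 2340 to 3070 CPM against 1710 to 2100 CPM (0.48, adjusted p = 0.033, with the block 0.087).

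Of 15 tested genes of MHC class I and NK cell ligands 10 were stroma-higher. Their log2 fold changes were positive for 7 and negative for 8, from -1.64 (Tap1) to 0.36 (Ulbp1). An unadjusted p under 0.05 was found for 0 in liver and 4 in peritoneum. Only Clec2d was called by edgeR (3.04 to 4.33 CPM in liver, 6.51 to 9.6 CPM in peritoneum, -1.02, adjusted p = 0.0243, with the block 0.0805), and its stromal means were 48 and 36.8 CPM. Tapbp also had an adjusted p under 0.05 by edgeR but did not pass the 2-fold threshold. DESeq2 called 1 gene of the list. H2-K1 had 34.2 to 43.9 CPM against 24.2 to 52 CPM in tumour cells and means of 374 and 317 CPM in liver and peritoneal stroma. All 15 tested interferon response genes were stroma-higher, 14 had a negative log2 fold change (median -0.37), and 0 were called by either tool (0 and 1 with an unadjusted p under 0.05). Of 19 cytokines and chemokines edgeR called only Cxcl12, a chemokine of fibroblasts, higher in peritoneum (adjusted p = 0.033, with the block 0.0704), and DESeq2 called 2. Cxcl12 was at 6.14, 0.538, 0.859 and 1.42 CPM in peritoneal tumour cells of mice 1 to 4 and at most 0.206 CPM in liver. Its fold change is not given because the liver values rest on a few counts. It was stroma-higher, with means of 13 CPM in liver and 163 CPM in peritoneal stroma. Of 11 antioxidant genes edgeR called only Gstm1 (-1.09, adjusted p = 0.0479, with the block 0.129), a glutathione transferase with near-identical relatives.

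The remaining lists had 0 calls by edgeR. They were the sterol and fatty acid synthesis genes (20 tested, 0 called by DESeq2, 0 and 2 with an unadjusted p under 0.05 in liver and peritoneum), the epithelial and mesenchymal state genes (14 tested, 0 by DESeq2, 1 and 1), the immediate early and heat shock genes (13 tested, 0 by DESeq2, 0 and 2) and the Wnt, Notch and TGF-beta targets (12 tested, 1 by DESeq2, 0 and 2). Immediate early and heat shock genes respond to tissue dissociation, and their median was -0.04.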

How the data were processed

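RNA from cells sorted by fluorescence (positive cells as tumour, negative cells as stroma) was made into libraries with the NuGEN Universal Plus mRNAseq kit and sequenced on a HiSeq 2500. According to the study's methods the authors aligned reads to mm9 with TopHat2, whereas the submitters' processing notes list mm8, mm10, FastQC and Bowtie 0.12.2 with no role. The counting program, its strand setting and the gene annotation are not given in the sources used here, so reads of overlapping genes cannot be told apart. The deposited table held raw counts per gene (24984 genes, 25 libraries), and the analysis started from these counts.

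The 8 tumour cell libraries were fitted without a block (the study's methods name none) with edgeR 4.0.16 (filterByExpr with a minimum count of 10, TMM factors, quasi-likelihood F-test, Benjamini-Hochberg adjustment over 13074 genes). A gene was called at an adjusted p under 0.05 and an absolute log2 fold change above 1, liver over peritoneum. Standard errors were derived from the fold change and the F statistic. Printed CPM used TMM factors over the 16 sorted libraries. Stroma-higher, tumour-higher and mixed classes compared mean CPM at both sites, with no test. Bounds for genes at 0 used 3 counts in the shallowest library of that group (0.113 CPM), and intervals and floors cover counting and replicate error only. The test was tried on simulated counts for this comparison (12933 genes), where it called 87 of 100 genes changed by 1.5 and 97 of 100 changed by 3 on the log2 scale, with 5 false calls. Changes were placed only in genes above a minimum mean count, and all libraries were drawn independently. The result therefore does not cover genes with fewer counts or a library that stands apart, such as peritoneal mouse 1.

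Liver and peritoneal tumours with 1 number came from the same animal by the titles, so the numbers pair the libraries. Their deviations from the group means correlated at -0.169, 0.0581, -0.0598 and 0.0137 in mice 1 to 4 (mean -0.0392). The fit with the mouse as a block is given beside the called genes described singly whose call it ended. Nothing says whether more than 1 library was made from a tumour, and 0 pairs of libraries were identical.

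The members, gene lists and marker lists were chosen with earlier results of these data known. Genes named were, among called genes with at least 100 counts and no overlap, the 10 largest changes per direction in the tumour-higher class and the 6 largest in the others, every called list member, the 4 genes the study links to dose and site and 6 Erk targets, and, added later, all other tumour-higher called genes and 6 genes chosen after their values were seen. Alternatives were RLE factors, DESeq2 1.42.0, no filter, mouse block, lane (read from the library descriptions) as a term, all 16 sorted libraries, genes over 2 times in stroma left out, a leukocyte covariate, other thresholds and leaving out each library. Gene positions came from the NCBIM37 annotation (71 of 71 named genes matched, 6 by an older symbol). Figures were drawn with matplotlib 3.10.9. A few results on genes withheld for evaluation are not reported here.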

Additional observations from a re-analysis of the deposited data

Results flagged for a closer look

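In groups of 4 libraries the gap between the highest or lowest value and the next was divided by the full range. This is Dixon's ratio, and it was held against its 95% critical value. Of 180 such groups 32 stood out, where chance would give about 1 in 20 if the groups were independent. They were not, since many genes were named because they were called and some also enter the marker sums. That rate also does not hold for 9 groups with 3 or 4 values of 0, where any single count stands out. They gave 5 of the 32 (Islr, Fbn2 and Sfrp4 in liver and the Y chromosome sum at both sites), and the other 171 groups gave 27. In all, 20 of the 32 were in peritoneal mouse 1. These were the tumour cell levels, in CPM, of Col3a1 (644), Col1a1 (446), Col1a2 (275), Postn (62.2), Tnc (41.5), Lox (25.4), Sfrp2 (16), Pdgfrb (14.1), Dpt (13.9), Sfrp4 (13.9), Lum (12.6), Svep1 (7.26), Cxcl12 (6.14), Islr (3.89), Fbn2 (3.27) and Ahsg (0.185), and the summed levels of fibroblast and stellate cell genes (1530), neutrophil genes (105), adipocyte genes (26) and muscle genes (12.4). All 20 were the highest of the 4 peritoneal libraries.

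Elsewhere, Trim71 was high in peritoneal mouse 4 (9.64 CPM, the others 3.44 to 4.41), Cideb low in the same library (2.41 CPM, the others 4.22 to 4.54), and Alb high in peritoneal mouse 2 (0.753 CPM). In liver tumour cells, Exoc3l4 (1.97 CPM), Sfrp4 (0.177 CPM) and Islr (0.0295 CPM) were highest in mouse 3, Fbn2 (0.0276 CPM) in mouse 2 and Pdgfrb (1.52 CPM) in mouse 4. The macrophage sum was highest in liver mouse 1 (525 CPM, the others 458 to 469), and the BMEL epithelial sum lowest in liver mouse 2 (5700 CPM, the others 6980 to 7240). The sum of 4 Y chromosome genes was 0.0276 CPM in liver mouse 2 and 0.0269 CPM in peritoneal mouse 2, with 0 in the other tumour libraries. No cause was tested for any of these values.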

How the results depend on the processing

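The number of genes called, 150 (50 higher in liver, 100 in peritoneum, and 30 tumour-higher of which 16 and 14), moved with most alternatives, and the cause was not tested except where fewer libraries or genes were fitted. DESeq2 called 233 (84 in liver, 48 tumour-higher, 25 of them in peritoneum). The mouse as a replicate block called 50 (21 and 29, 14 tumour-higher, 7 and 7), and together with the study's threshold, a setting chosen after seeing the data, 374 (153 and 221, 74 tumour-higher, 40 and 34). Beyond the calls given in the report the block changed no call of a tumour-higher gene. Lane as a term called 97 (27 in liver, 19 tumour-higher, 8 in peritoneum). All 16 sorted libraries in 1 fit called 311 (86 and 225). Leaving out genes over 2 times in stroma called 67 (30 in peritoneum, 22 of them tumour-higher), and a leukocyte covariate 266 (212 in peritoneum, 22 tumour-higher). The study's threshold (unadjusted p) called 460 (150 and 310, 80 tumour-higher, 40 and 40), and no minimum fold 419 (174 and 245, 179 tumour-higher, 86 and 93). Classing against 2 times the pooled tumour mean gave 49 tumour-higher genes in place of 30. RLE factors and no filter on low counts left the calls of all 71 named genes as they were.

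Leaving out 1 library gave 23 to 278 genes (13 to 151 in liver, 10 to 127 in peritoneum), and 11 to 46 tumour-higher genes (7 to 27 and 4 to 19). Counts moved by over 1.5 times without liver mouse 1 (60 in peritoneum), mouse 2 (23 in all), mouse 3 (73) and mouse 4 (40) and without peritoneal mouse 1 (278). Without mouse 1 at both sites, also chosen after seeing the data, 295 were called (174 in liver, 52 tumour-higher, 30 and 22). Changes of sign were limited to 3 Erk targets that were not called, Phlda1 (-0.156 to 0.0316 over fits that left out 1 library, the latter without peritoneal mouse 1, and 0.0508 without mouse 1 at both sites), Dusp6 (-0.22 to 0.004, the latter without peritoneal mouse 3) and Spry2 (0.00785 without mouse 1 at both sites). The 11 calls among the Ras dose genes of cultured cells became 12 when the culture list was made by DESeq2 and 10 with a replicate block for it. Under fits of the site comparison added after seeing the data they became 3 with the mouse as a replicate block, 4 with lane, 23 by DESeq2, 19 both with all 16 sorted libraries and with the leukocyte covariate, 32 at the study's threshold with or without the block, 18 without mouse 1 at both sites and 2 to 17 when 1 library was left out. The marker sums moved by less than 1 SD with CPM by total counts. Levels under 0.113 CPM rest on 3 counts or fewer in the shallowest library, and with 4 mice, 1 clone and 1 library per tumour the p-values measure only the spread between these tumours.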

Other observations

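The 3 genes Tmprss11b, Tmprss11e and Csn3, all higher in liver tumour cells, lie within 1275035 bases of chromosome 5 on NCBIM37 (87086656 to 88361690), an interval looked at after their positions were seen. It held 7 tested genes, of which these 3 were called by edgeR's quasi-likelihood test. The RNA-modification reader Ythdc1, between them, had a log2 fold change of 0.37 (adjusted p = 0.0568). The glucuronosyltransferase genes Ugt2b34, Ugt2b35 and Ugt2b36, which share similar sequences, had log2 fold changes of 0.06, -0.78 and -0.80 (adjusted p = 0.928, 0.385 and 0.152). The genes of this interval that did not pass the test lie together between Tmprss11e and Csn3, with log2 fold changes in both directions. The interval was bounded by called genes, so its 3 calls of 7 are not read beside the 1.15% called among all genes tested.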
